A study of Mus musculus with 6 samples.

Results

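The mitochondrial carriers of the Slc25 family were described here in the liver of mice on chow or on a high-fat diet with or without nobiletin. Members were the genes with a platform symbol beginning with Slc25a and a probe detected (detection p under 0.01) on at least 2 of the 6 arrays, with the probe of highest mean level taken for each gene. Of 46 Slc25a genes on the platform, carried by 76 probes, 30 were detected, among 8561 named and detected genes in all. The probe used was detected on all 6 arrays for 26 of the 30.

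Each array was an Illumina bead array hybridised with liver RNA pooled from 4 C57BL/6J mice aged 18 weeks, and there was 1 array for each of 3 arms at each of 2 times. In the RC arm mice ate regulatory chow and received vehicle. In the HFD arm they ate a high fat diet and also received vehicle, and in the NOB arm the same diet was combined with nobiletin, a citrus flavonoid, at 200 mg/kg by mouth on alternate days over 10 weeks. Livers were taken at zeitgeber time 2 (ZT2) and ZT14, which lie 2 hours after lights on and after lights off in a cycle of 12 hours of light and 12 of darkness. Food was freely available in all arms, and the sources used here do not state sex. Each pool hides the spread between its 4 mice, and no arm and time had a second pool. The p-values below therefore rest on how far the 6 pools depart from additive effects of arm and time. That departure mixes noise between pools with any arm difference that depends on time, and it does not measure the spread between mice.

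Slc25 proteins sit in the inner mitochondrial membrane, with a few in other membranes, and exchange nucleotides, phosphate, di- and tricarboxylates, amino acids, acylcarnitines and cofactors between matrix and cytosol. In liver they feed the urea cycle with ornithine, export the citrate from which fatty acids are made, and import the acylcarnitines that are burned by beta-oxidation. The comparison of HFD with RC asks how these carriers stand after a long high-fat diet, the comparison of NOB with HFD what nobiletin adds, and the comparison of the times whether they differ between light and dark.

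The promoters of the 4 carriers that rose with the high-fat diet are shown because these genes carry the main finding. Each sequence is the 250 bases before the RefSeq start in build GRCm38.p6, 5′ to 3′ on the gene's own strand. They lie at chr12:108850879-108851128 on the plus strand for Slc25a47, at chr11:120491587-120491836 on the plus strand for Slc25a10, at chr9:108661886-108662135 on the plus strand for Slc25a20 and at chr14:75787038-75787287 on the minus strand for Slc25a30. Capitals mark matches to the letters searched, on either strand.
Slc25a47: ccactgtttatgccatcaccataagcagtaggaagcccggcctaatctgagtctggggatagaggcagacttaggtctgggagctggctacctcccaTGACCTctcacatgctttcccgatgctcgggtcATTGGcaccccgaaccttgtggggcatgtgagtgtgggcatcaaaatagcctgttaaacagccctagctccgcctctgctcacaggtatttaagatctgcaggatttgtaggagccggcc
Slc25a10: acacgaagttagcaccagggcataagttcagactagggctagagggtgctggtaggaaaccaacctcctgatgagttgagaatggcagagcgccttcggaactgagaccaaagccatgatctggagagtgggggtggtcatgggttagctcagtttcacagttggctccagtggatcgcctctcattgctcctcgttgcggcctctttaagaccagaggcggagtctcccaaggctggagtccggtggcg
Slc25a20: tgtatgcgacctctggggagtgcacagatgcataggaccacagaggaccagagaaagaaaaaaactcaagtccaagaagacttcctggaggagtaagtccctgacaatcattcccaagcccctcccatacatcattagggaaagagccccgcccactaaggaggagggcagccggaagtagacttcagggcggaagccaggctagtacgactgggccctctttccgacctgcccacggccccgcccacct
Slc25a30: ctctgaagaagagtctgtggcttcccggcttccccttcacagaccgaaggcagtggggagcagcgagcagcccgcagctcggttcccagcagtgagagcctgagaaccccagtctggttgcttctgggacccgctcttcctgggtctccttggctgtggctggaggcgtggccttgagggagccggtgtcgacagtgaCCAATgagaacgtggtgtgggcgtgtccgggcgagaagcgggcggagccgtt
The letters searched were AGGTCA (the core of many nuclear receptor sites, including those of the ROR receptors), CACGTG (an E-box, bound by clock factors), CCAAT and TTATGTAA (a D-box), none of which contains another. In Slc25a47 the capitals are AGGTCA, read on the opposite strand 153 bases before the start, and CCAAT, read on the opposite strand 120 bases before it. In Slc25a30 they are CCAAT, 52 bases before the start, and no searched motif was found in the windows of Slc25a10 or Slc25a20. RefSeq promoters were matched for 26 of the 30 genes, and these genes had 33 promoter windows, since some have several starts. AGGTCA stood in 4 of the 33 windows, CACGTG in 6, CCAAT in 16 and TTATGTAA in none. Of all 32851 promoter windows, 14% held AGGTCA, 6.02% CACGTG, 33.8% CCAAT and 0.819% TTATGTAA. The median GC content was 57.6% for the members' promoters and 52.4% for all.

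Levels are given below as log2 normalized intensities, and differences as log2 differences ± the standard error of the limma fit, with 2 arrays per arm. Between 28.07% and 31.96% of the 45281 probes were detected per array. Of 4 measured hepatocyte markers, Apoa1 (14.19 to 14.36) and Ttr (up to 14.21) lay close to the highest level of any gene, 14.6, with little room above them, and the single probe of Alb lay near background at 4.77 to 5.39. Serpina1a stood at 12.92 and 12.65 in RC, 12.25 and 12.21 in HFD, and 12.25 and 12.42 in NOB. All 4 markers were below 0 in HFD minus RC without passing the test, Serpina1a by -0.56 (unadjusted p = 0.0115, adjusted p = 0.0950 by limma).

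Markers of other cell types also differed between arrays. The 8 skeletal muscle markers that entered the fit summed to a normalized intensity, with the offset removed, of 4818 on the RC array at ZT14, 834 on the HFD array at ZT14 and 136 to 206 on the other 4 arrays, and all 10 muscle markers on the platform were detected on the RC array at ZT14, against 4 to 8 on the others. The ADP/ATP carrier of muscle and heart, Slc25a4, was not detected on any array. Fitted values without the RC array at ZT14 are given for the 10 carriers described in full, and for the other 20 the part of that array was not tested. The same sum over 5 macrophage markers was 784 to 1084 in RC, 1843 to 1950 in HFD and 1323 to 1551 in NOB. In HFD against RC, 3 of the 5 (Gpnmb, Lgals3 and Trem2) were higher at an adjusted p under 0.05 by limma. Adgre1 (0.62) and Clec4f (-0.07) did not pass. Gpnmb and Trem2 were each detected on 4 of the 6 arrays, and the part of macrophages in the carriers' values was not tested. In HFD against RC, 1 of 2 measured markers of exocrine pancreas was lower (Cela2a, -0.89, adjusted p = 0.0497 by limma, detected on 2 arrays), with sums of 648 and 650 in RC, 359 and 403 in HFD, and 372 and 749 in NOB. In the same comparison 1 of 3 measured adipocyte markers was higher (Car3, which liver also makes, 0.90, adjusted p = 0.0201 by limma). The other 2, Adipoq (-0.95, adjusted p = 0.0628 by limma) and Lep (-0.16), lay below 0 without passing. The adipocyte sums were 3007 and 3584 in RC, 5882 and 6121 in HFD, and 4952 and 5969 in NOB. These sums mostly follow Car3, whose mean level was 12.19, against 6.07 for Adipoq and 5.05 for Lep. The part of exocrine pancreas or adipocytes in the carriers' values was not tested.

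On the high-fat diet 4 of the 30 carriers rose and none fell, by limma with Benjamini-Hochberg adjustment over all genes at 0.05. These counts depended on the processing, as described in a later section. Slc25a15 was lower and missed the threshold here, but it passed in 7 of 16 alternatives. Slc25a47, a hepatocyte carrier, and Slc25a10, the dicarboxylate carrier, were each more than 2-fold higher. Slc25a30, a kidney-type uncoupling-like carrier, was also more than 2-fold higher, but from low levels in RC and with a size that depended on the processing. Slc25a20, the carnitine-acylcarnitine carrier, was 1.63-fold higher. In the same comparison 4.49% of all genes rose, 2.34% fell and 6.82% changed in either direction. At an unadjusted p under 0.05 there were 8 carriers, 5 higher and 3 lower, and 24.2% of all genes.

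**Figure D1:**
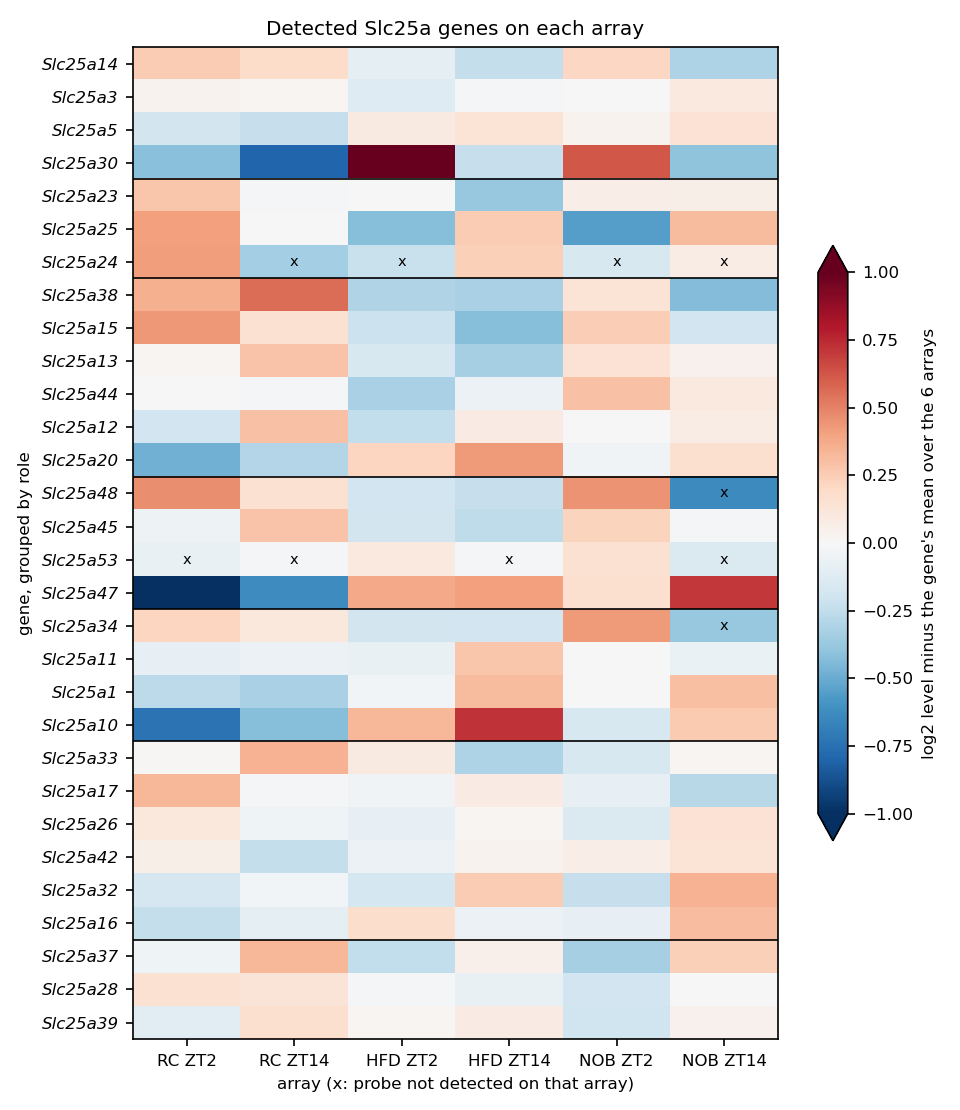
Heat map of the 30 detected Slc25a genes, grouped by role, over the 6 arrays (columns). Colour gives each gene's log2 level minus its own mean over the 6 arrays, and a cross marks an array on which the probe was not detected. Slc25a47 and Slc25a10 are lowest on both RC arrays, while Slc25a15 has its lowest level, 10.13, in HFD at ZT14.

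Slc25a47, which is made almost only in hepatocytes and whose substrate is debated, had a level of 11.91 in RC at ZT2 and 12.31 at ZT14, 13.32 and 13.35 in HFD, and 13.10 and 13.64 in NOB. Both RC pools lay below all 4 pools on the high-fat diet, and the HFD and NOB pools overlapped. HFD exceeded RC by 1.22 ± 0.17, or 2.33-fold, with an adjusted p of 0.0129 (limma). The difference was 1.40 at ZT2 and 1.04 at ZT14. In a bulk sample such as whole liver, a change in the share of a cell type and a change in RNA per cell cannot be told apart. With 1 array left out, the difference stayed positive at 1.0 (adjusted p = 0.129 by limma, without HFD at ZT2), 1.44 (0.0782, without HFD at ZT14) and 1.28 (0.0522, without RC at ZT14), and these values miss the threshold.

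Slc25a10 exchanges malate or succinate for phosphate and so supplies dicarboxylates to the cytosol. Its level was 9.14 in RC at ZT2 and 9.45 at ZT14, 10.21 and 10.60 in HFD, and 9.71 and 10.14 in NOB. The 3 arms did not overlap: both NOB pools lay above both RC pools and below both HFD pools. HFD exceeded RC by 1.11 ± 0.14, or 2.16-fold, with an adjusted p of 0.00997 (limma), and by 1.07 at ZT2 and 1.14 at ZT14. Without the RC array at ZT14 the difference was 1.06 (adjusted p = 0.0487 by limma). Without HFD at ZT2 it was 1.12 (adjusted p = 0.0942) and without HFD at ZT14 it was 1.10 (adjusted p = 0.128), both of which miss the threshold.

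The other carriers of citrate, dicarboxylates and oxoacids did not pass the test. Slc25a1, the citrate carrier that exports the carbon for fatty acid synthesis, had levels of 10.16 and 10.09 in RC at ZT2 and ZT14, 10.39 and 10.73 in HFD, and 10.41 and 10.72 in NOB. Both RC pools were the lowest, and HFD and NOB overlapped. HFD minus RC was 0.43 ± 0.16 with an unadjusted p of 0.0331 and an adjusted p of 0.166 (limma). Without the RC array at ZT14 it was 0.24 (adjusted p = 0.531), and the second detected probe gave 0.25 (adjusted p = 0.455). The difference was 0.17 for Slc25a11, the oxoglutarate/malate carrier of the malate-aspartate shuttle. It was -0.35 for Slc25a34, which was listed in this group although its substrate is not settled.

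Slc25a20 carries acylcarnitines into the matrix for beta-oxidation in exchange for carnitine. Its level was 10.89 in RC at ZT2 and 11.07 at ZT14, 11.59 and 11.80 in HFD, and 11.34 and 11.53 in NOB. The arms again did not overlap, with RC lowest, NOB between and HFD highest. HFD exceeded RC by 0.71 ± 0.14, or 1.63-fold, with an adjusted p of 0.0343 (limma), 0.70 at ZT2 and 0.72 at ZT14. The call was lost when any 1 array was left out, with differences of 0.70 to 0.72 and adjusted p-values by limma of 0.0576 (without either NOB array), 0.0614 (RC at ZT2), 0.125 (RC at ZT14), 0.220 (HFD at ZT2) and 0.264 (HFD at ZT14). The second detected probe of the gene gave 0.67 with an adjusted p of 0.102.

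The amino acid carriers lay on the other side of 0 without passing the test. Slc25a15, which exchanges ornithine and citrulline for the urea cycle, had levels of 10.98 and 10.71 in RC at ZT2 and ZT14, 10.33 and 10.13 in HFD, and 10.79 and 10.36 in NOB. Both RC pools lay above both HFD pools, and NOB overlapped with RC. HFD minus RC was -0.62 ± 0.15 with an adjusted p of 0.0558 (limma), -0.65 at ZT2 and -0.58 at ZT14. It was -0.59 without the RC array at ZT14 (adjusted p = 0.186). Its second detected probe gave -0.90 with an adjusted p of 0.0301 (limma), past the threshold. Slc25a15 also passed without background correction, at -0.60 (adjusted p = 0.0274 by limma), and in 7 of 16 alternatives in all.

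Slc25a38, a glycine carrier needed for heme synthesis in red cell precursors, had levels of 9.97 and 10.17 in RC at ZT2 and ZT14, 9.31 and 9.28 in HFD, and 9.75 and 9.18 in NOB. Both RC pools lay above all 4 pools on the high-fat diet, and HFD and NOB overlapped. HFD minus RC was -0.77 ± 0.21 with an adjusted p of 0.0760 (limma), and it was -1.02 with an adjusted p of 0.0469 without the RC array at ZT2. Without the RC array at ZT14 it was -0.52, with an adjusted p of 0.300. Its other 2 detected probes both gave -0.91, with adjusted p-values of 0.0522 and 0.0672 when each in turn stood for the gene. The 2 red blood cell and erythroid markers measured summed to a normalized intensity, with the offset removed, of 17816 and 8661 in RC at ZT2 and ZT14, 12125 and 13813 in HFD, and 10786 and 7537 in NOB, neither passed the test, and their part in the level of Slc25a38 was not tested.

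Slc25a13, or citrin, the aspartate/glutamate carrier of liver, had levels of 6.15 and 6.41 in RC at ZT2 and ZT14, 5.97 and 5.80 in HFD, and 6.27 and 6.17 in NOB. Both RC pools lay above both HFD pools, and both NOB pools also lay above them. HFD minus RC was -0.40 ± 0.16 with an unadjusted p of 0.0476 and an adjusted p of 0.201 (limma). Without the RC array at ZT14 it was -0.20 (adjusted p = 0.611), and without the RC array at ZT2 it was -0.60 (adjusted p = 0.0958). Its counterpart Slc25a12 (aralar) stood at -0.13, and Slc25a44, a carrier of branched-chain amino acids, at -0.18.

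**Figure D2:**
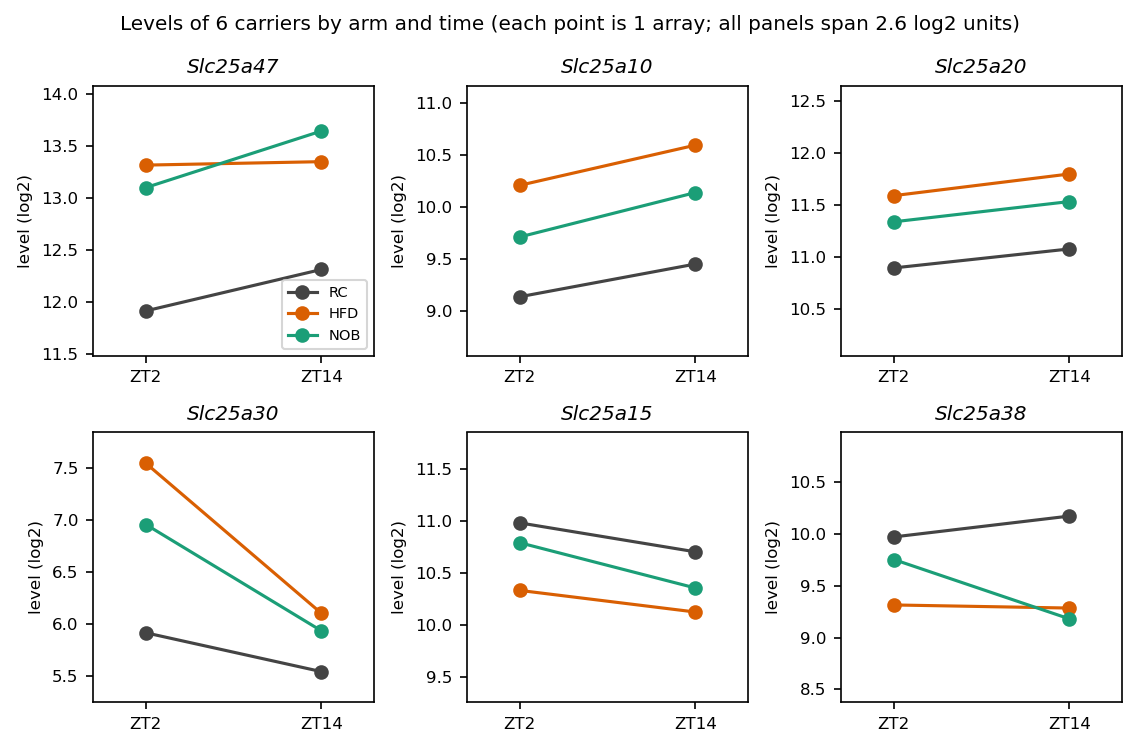
Log2 level of 6 carriers at ZT2 and ZT14 (horizontal axis), with a colour for each arm; each point is 1 array, lines join the pools of an arm, and every panel spans the same number of log2 units. Slc25a47, Slc25a10, Slc25a20 and Slc25a30 are lower on both RC arrays than on both HFD arrays, while Slc25a15 and Slc25a38 are higher there.

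Among the carriers of ADP/ATP, phosphate and uncoupling-like activity, 4 were detected and 1 rose. Slc25a30, known first from kidney, had levels of 5.91 and 5.54 in RC at ZT2 and ZT14, 7.55 and 6.10 in HFD, and 6.96 and 5.93 in NOB. Both RC pools lay below both HFD pools, and in every arm the ZT2 pool lay above the ZT14 pool. HFD exceeded RC by 1.10 ± 0.25, or 2.14-fold, with an adjusted p of 0.0493 (limma), just inside the threshold. The difference was 1.63 at ZT2 and 0.56 at ZT14. Its probe was dim in RC, with raw intensities of 93.1 at ZT2 and 80.1 at ZT14. The median probe of those arrays had 59.2 and 57.5.

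The call for Slc25a30 rested on most of the arrays and on the processing. Without background correction the difference was 0.75 (adjusted p = 0.0715 by limma), and with an offset of 50 it was 0.79 (adjusted p = 0.0649 by limma). With the authors' processed intensities it was 1.09 (adjusted p = 0.0527 by limma). Without RC at ZT14 the difference was 1.53 (adjusted p = 0.0284 by limma), and without RC at ZT2 it was 0.67 (adjusted p = 0.107). Without HFD at ZT2 it was 0.72 (adjusted p = 0.317), without HFD at ZT14 it was 1.47 (adjusted p = 0.122), and without either NOB array it was 1.10 (adjusted p = 0.0652). The other 3 carriers of the group did not pass. HFD minus RC was 0.32 for Slc25a5, the only ADP/ATP carrier detected here. It was -0.09 for Slc25a3, the phosphate carrier of ATP synthesis, and -0.39 for Slc25a14, an uncoupling-like carrier first known from brain.

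**Figure D3:**
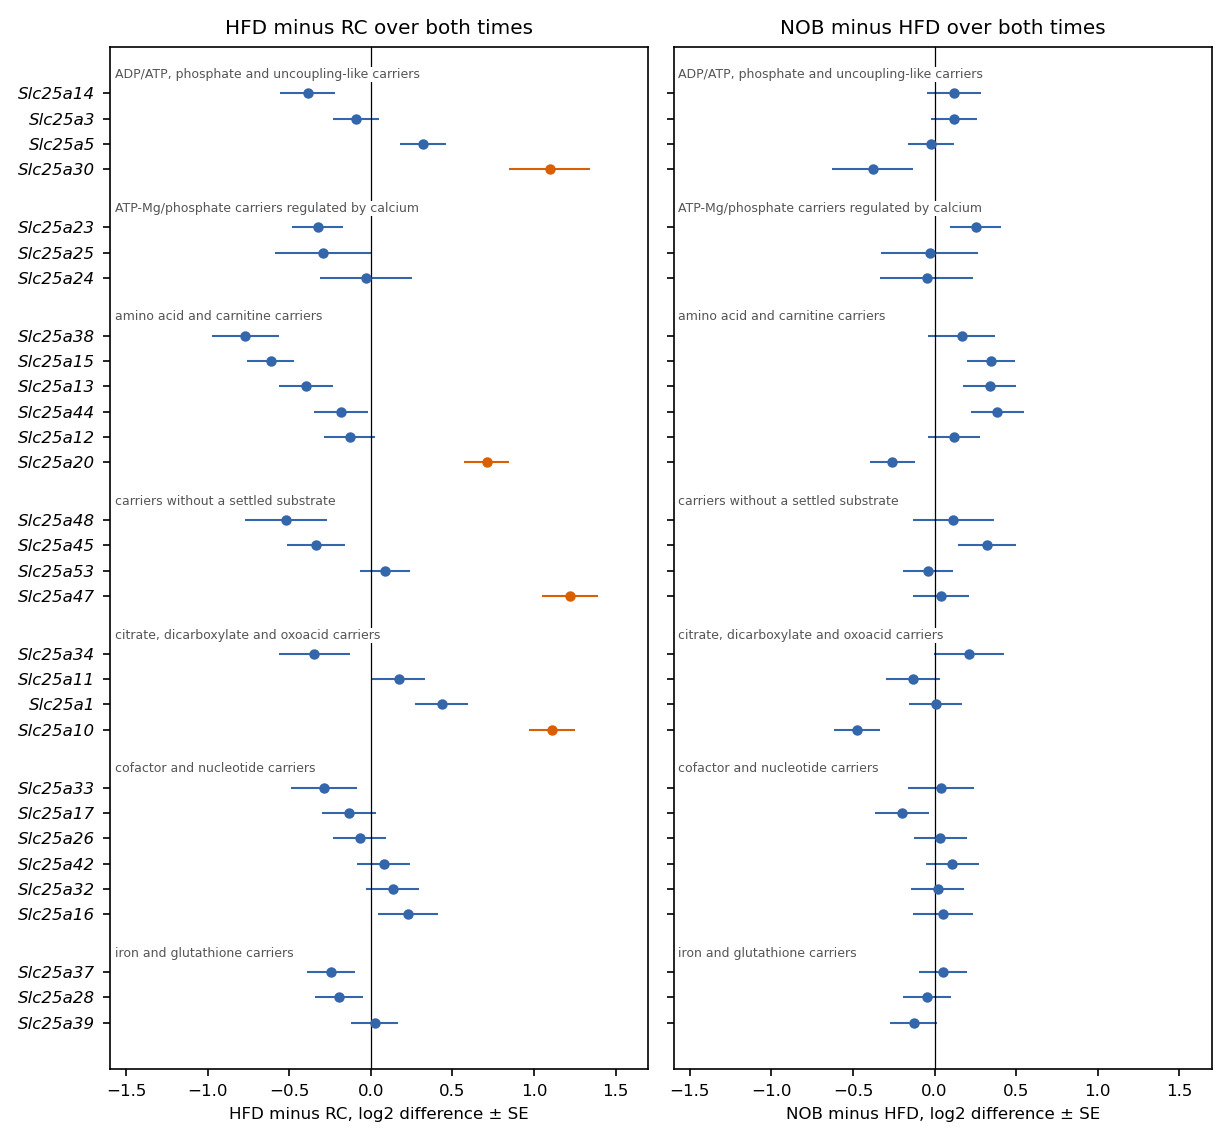
HFD minus RC and NOB minus HFD (log2, ± standard error of the limma fit) for each of the 30 Slc25a genes, grouped by role, with orange for an adjusted p under 0.05. With HFD against RC, 4 carriers passed the adjusted threshold, all above 0 and in 4 different role groups, and none passed with NOB against HFD.

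The remaining role groups held no carrier that passed the test in HFD against RC. All 3 calcium-regulated ATP-Mg/phosphate carriers detected lay below 0, at -0.32 for Slc25a23, -0.29 for Slc25a25 and -0.03 for Slc25a24. The 6 cofactor and nucleotide carriers ranged from -0.29 for Slc25a33, a pyrimidine nucleotide carrier, to 0.23 for Slc25a16, which is linked to coenzyme A. Between them were Slc25a17, the peroxisomal carrier of coenzyme A and other cofactors, at -0.13, Slc25a26, the S-adenosylmethionine carrier, at -0.07, Slc25a42, a carrier of coenzyme A, at 0.08 and Slc25a32, a folate or FAD carrier, at 0.13, which became -0.05 without the RC array at ZT14. Mitoferrin-1 (Slc25a37) and mitoferrin-2 (Slc25a28), which import iron, stood at -0.24 (-0.27 without the RC array at ZT14) and -0.19, and Slc25a39, the carrier of glutathione, at 0.02. In the role group listed as without a settled substrate, Slc25a45 stood at -0.34, Slc25a48 at -0.52 and Slc25a53 at 0.09, beside Slc25a47.

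Over all 30 members the median of HFD minus RC was -0.11, against -0.00 over all genes. Both HFD pools lay above both RC pools for 7 members and below both for 10, where 26.4% and 25.2% of all genes did so. A difference of at least 1.5-fold in the same direction at both times was found for 3 members upward (Slc25a47, Slc25a10 and Slc25a20), against 4.82% of all genes, and for 1 downward (Slc25a38), against 2.49%. At single times, with 1 array per arm and no test, the members at least 1.5-fold apart were 9 at ZT2 (13.5% of all genes) and 7 at ZT14 (19.1%).

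**Figure D4:**
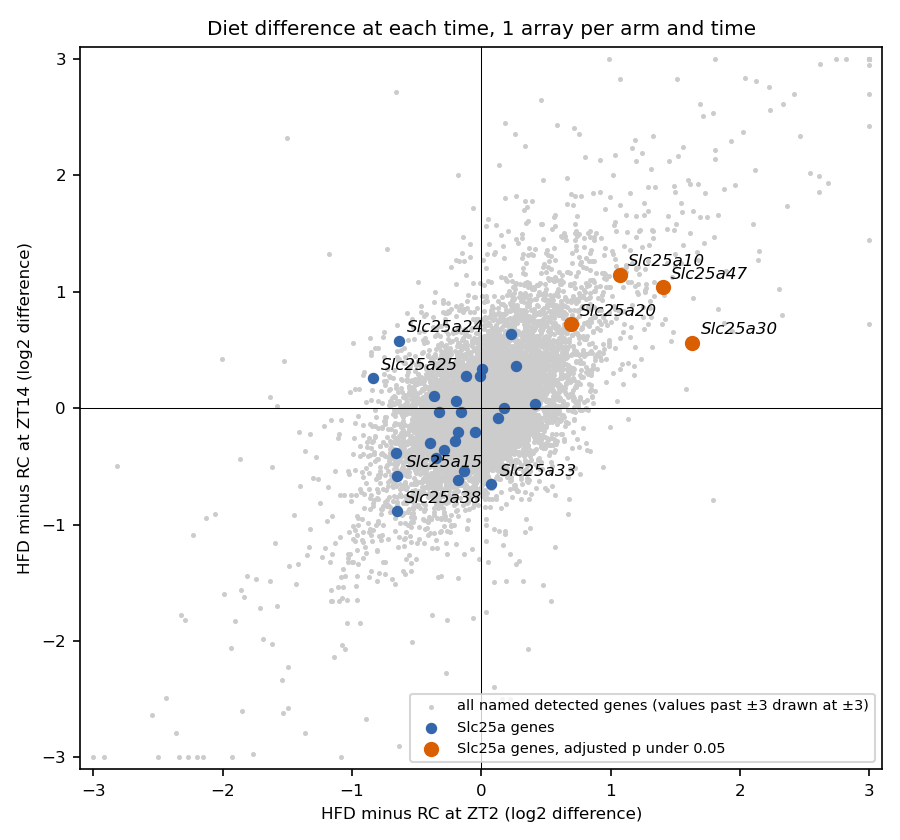
HFD minus RC (log2) at ZT2 (horizontal axis) and at ZT14 (vertical axis), each from 1 array per arm, for the 30 Slc25a genes over all named detected genes in grey, with orange for an adjusted p under 0.05. Slc25a10 has nearly equal differences of 1.07 and 1.14, whereas Slc25a30 has 1.63 at ZT2 and 0.56 at ZT14.

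Several probes were detected for 6 members, and in each gene all of them had the sign of the brightest probe in HFD minus RC. Slc25a1 had 0.43 and 0.25, Slc25a3 had -0.09 and -0.38, and Slc25a11 had 0.17, 0.19 and 0.04. The probes of Slc25a15, Slc25a20 and Slc25a38 are given above.

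**Figure D5:**
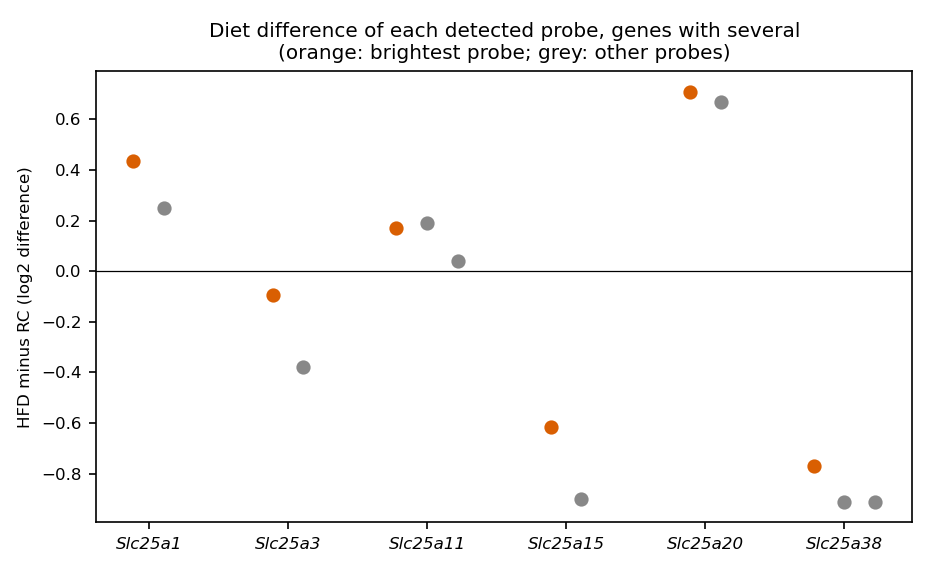
HFD minus RC (log2) of every detected probe for the 6 Slc25a genes with several detected probes (brightest in orange, others in grey). Within each gene the probes share a sign, and the 2 probes of Slc25a15 stand at -0.62 and -0.90.

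Genes that work beside these carriers were also listed. The urea cycle, which Slc25a15 serves, had 6 of 6 enzymes below 0 in HFD against RC with a median of -0.65, and 2 of them fell: Cps1, its first enzyme, by 1.41 ± 0.19 (adjusted p = 0.0114, limma) and Asl, argininosuccinate lyase, by 0.81 ± 0.15 (adjusted p = 0.0277). Of 3 measured genes of the carnitine system around Slc25a20, Crat, carnitine acetyltransferase, rose by 1.31 ± 0.15 (adjusted p = 0.00787), and the other 2 did not pass. Of 6 measured genes listed around citrate use in the cytosol, 1 passed, at 0.70 ± 0.14 (adjusted p = 0.0414 by limma). It was Pcx (pyruvate carboxylase), a mitochondrial enzyme that supplies oxaloacetate for citrate and does not itself act in the cytosol. Me1, malic enzyme, had 0.86 (adjusted p = 0.0628 by limma), Fasn 0.48 (0.180) and Acly 0.43 (0.39), and 1 of the 6 lay below 0.

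In the one-carbon and folate list 2 of 7 measured genes fell, Aldh1l1 by 0.82 (adjusted p = 0.0311, limma) and Gnmt by 0.73 (adjusted p = 0.0349). Aldh1l1 oxidises formyl-tetrahydrofolate and Gnmt methylates glycine with S-adenosylmethionine. No gene passed in either direction among 3 malate-aspartate shuttle enzymes, 7 heme and iron-sulfur genes, 10 outer membrane channel and import genes, 7 genes of mitochondrial content and 5 ATP synthase subunits, whose medians were 0.26, 0.18, -0.11, -0.17 and 0.00. The family members under other symbols stood at -0.24 for Ucp1, 0.02 for Mtch1 and -0.32 for Mtch2, and none passed.

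Nobiletin on the high-fat diet changed no carrier at an adjusted p under 0.05 by limma, and 0.164% of all genes passed. At an unadjusted p under 0.05 there were 2 members, against 8.77% of all genes. They were Slc25a10, with NOB minus HFD of -0.48 ± 0.14 (unadjusted p = 0.0117, adjusted p = 0.388 by limma; -0.50 at ZT2 and -0.46 at ZT14), and Slc25a15, with 0.35 (unadjusted p = 0.0499, adjusted p = 0.569; 0.46 and 0.23). A p that misses the threshold does not show that the arms were alike. NOB minus HFD uses the same HFD arrays as HFD minus RC, with the opposite sign. A gene whose HFD pools were high by chance would lie above 0 in HFD minus RC and below 0 in NOB minus HFD. The values of NOB minus HFD, here and below, therefore only stand beside the diet differences.

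Of the other carriers higher on the high-fat diet, NOB minus HFD was -0.26 for Slc25a20 (-0.25 at ZT2 and -0.27 at ZT14), -0.38 for Slc25a30 (-0.59 and -0.17) and 0.04 for Slc25a47, with adjusted p-values of 0.693, 0.768 and 0.985 by limma. For Slc25a38 it was 0.44 at ZT2 and -0.10 at ZT14. Both NOB pools lay above both HFD pools for 7 members and below for 3, where 17.8% and 18.4% of all genes did so, and the median over the members was 0.04, against 0.01 over all genes. All 6 urea cycle enzymes lay above 0, with a median of 0.29, and none passed. Of all 8561 genes, 4386 lay above 0. Other lists were as one-sided, without a gene that passed. All 7 measured genes of mitochondrial content (median 0.21), all 5 ATP synthase subunits (0.09) and 6 of 7 one-carbon and folate genes (0.21) lay above 0. All 3 carnitine system genes (-0.07) lay below 0. Of 5 macrophage markers, 3 lay below 0 in NOB minus HFD: Gpnmb at -2.53 (adjusted p = 0.00425 by limma), Trem2 at -1.23 and Lgals3 at -1.13. Only Gpnmb passed, and Clec4f (0.51) and Adgre1 (0.03) lay above 0. The part of macrophages in the carriers' values was not tested.

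Compared with RC, the NOB arm differed in 1 carrier, which was higher, and 0.993% of all genes passed, with 0.526% of all genes higher. Slc25a47 was higher by 1.26 ± 0.17, or 2.40-fold, with an adjusted p of 0.0347 (limma), by 1.19 at ZT2 and 1.33 at ZT14. Leaving out any 1 array ended this call, with adjusted p-values of 0.0567 (RC at ZT2), 0.0683 (either HFD array), 0.0655 (NOB at ZT2), 0.102 (RC at ZT14) and 0.267 (NOB at ZT14) and differences between 1.10 and 1.42. The 1 cholangiocyte marker measured, Sox9, was lower in NOB than in RC by -1.46 (adjusted p = 0.0407 by limma), at 8.74 and 8.55 in RC and 7.12 and 7.25 in NOB, and its part in the carriers' values was not tested. Of the carnitine system, Crat was also higher in NOB than in RC, by 1.04 ± 0.15 (adjusted p = 0.0400 by limma). Because the comparison of NOB with RC shares its arrays with the other arm comparisons, its values only stand beside theirs.

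NOB minus RC was 0.63 for Slc25a10 (adjusted p = 0.102 by limma), 0.45 for Slc25a20 (0.208), 0.72 for Slc25a30 (0.251), 0.44 for Slc25a1 (0.280) and -0.60 for Slc25a38 (0.249). Without the RC array at ZT14 these were 0.59 for Slc25a10 (adjusted p = 0.300 by limma), 0.44 for Slc25a20 (0.410), 1.15 for Slc25a30 (0.125), 0.25 for Slc25a1 (0.632) and -0.35 for Slc25a38 (0.598). Over all alternatives NOB minus RC ran from 0.29 to 1.15 for Slc25a30, from 0.17 to 0.63 for Slc25a1 and from -0.93 to -0.28 for Slc25a38. At an unadjusted p under 0.05 there were 6 members, 5 higher and 1 lower, against 15% of all genes. Both NOB pools lay above both RC pools for 9 members and below for 3, where 22.8% and 19.2% of all genes did so.

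Between ZT14 and ZT2 no carrier passed over the 3 arms by limma, and 0.0234% of all genes did. At an unadjusted p under 0.05 there were 5 members, 3 higher and 2 lower, against 10.9% of all genes. Slc25a30 had the largest difference among the 30 in this comparison, -0.95 ± 0.20 (unadjusted p = 0.00245, adjusted p = 0.186 by limma), and it was lower at ZT14 in all 3 arms, by -0.37 in RC, -1.44 in HFD and -1.02 in NOB. It was -1.23 without the RC array at ZT14 (adjusted p = 0.0814). Slc25a15 stood at -0.31 (unadjusted p = 0.0366, adjusted p = 0.427), and at -0.32 without that array.

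Slc25a37, mitoferrin-1, had levels of 7.41 and 7.78 in RC at ZT2 and ZT14, 7.20 and 7.50 in HFD, and 7.12 and 7.68 in NOB. All 3 ZT14 pools lay above all 3 ZT2 pools, and the difference was 0.41 ± 0.12 (unadjusted p = 0.0123, adjusted p = 0.314 by limma), or 0.43 without the RC array at ZT14. Slc25a10 was higher at ZT14 by 0.31 in RC, 0.39 in HFD and 0.43 in NOB, a fitted difference of 0.38 ± 0.11 (unadjusted p = 0.0137, adjusted p = 0.318), or 0.41 without that array.

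Slc25a32, the folate or FAD carrier, had levels of 5.57 and 5.72 in RC at ZT2 and ZT14, 5.56 and 5.99 in HFD, and 5.51 and 6.09 in NOB. Its ZT14 pools all lay above its ZT2 pools, and the difference was 0.38 ± 0.13 (unadjusted p = 0.0239, adjusted p = 0.393 by limma), or 0.51 without the RC array at ZT14. Its probe was dim, with raw intensities of 82.5 to 110.2. How many of all genes separate the times as Slc25a37 and Slc25a32 do was not counted. The sign was the same in all 3 arms for 7 members upward and 6 downward, against 15.8% and 17.8% of all genes.

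The 20 members not given in full ranged from -0.52 (Slc25a48) to 0.32 (Slc25a5) in HFD minus RC, from -0.20 (Slc25a17) to 0.38 (Slc25a44) in NOB minus HFD and from -0.48 (Slc25a48) to 0.38 (Slc25a25) in ZT14 minus ZT2. Slc25a34 and Slc25a48 were not detected in NOB at ZT14, Slc25a24 was detected only in RC at ZT2 and HFD at ZT14, and Slc25a53 only in the HFD and NOB pools at ZT2, so their differences are near the background of the arrays. The median range of a member over the 6 arrays was 0.61, against 0.54 over all genes.

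For the other 16 genes no probe was detected on 2 arrays: Slc25a2, Slc25a4, Slc25a18, Slc25a21, Slc25a22, Slc25a27, Slc25a29, Slc25a31, Slc25a35, Slc25a36, Slc25a40, Slc25a41, Slc25a43, Slc25a46, Slc25a51 and Slc25a54. Their raw intensities lay between 44.9 and 69.3, where the median probe of an array had 57.5 to 62.4. The lowest detection p among them was 0.012, for Slc25a35, just outside the threshold.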

How the data were processed

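Per the labels' protocols, total RNA of frozen liver was extracted with a column kit, pooled from 4 mice and labelled with biotin. The deposited table gave a raw intensity per probe, averaged over its beads, and its detection p-value for 45281 probes, per the file headers. A second deposited table held the authors' processed intensity, linear, background-subtracted and quantile normalized as its values show (median 3.5, lowest -15.9 in each column), with direction given by each array's own intensities (r = 0.935 to 0.954 over 11487 probes, other arrays at most 0.328) and the amount subtracted and the centring unknown. GenomeStudio is named in the submitters' processing notes, with no version.

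Intensities were normalized with neqc (offset 16) in limma 3.58.1 and R 4.3.3, which compresses differences of dim probes. Probes were named from the platform annotation (34885 with 1 symbol, 18 with several, 10378 not listed), and 8548 of the 8561 genes matched GRCm38.p6 by identifier. The brightest of a gene's detected probes was used. A linear model with arm and time as additive terms was fitted over all 8561 genes, with 2 residual and 4.82 prior degrees of freedom, so a diet effect that differs by time counts as spread. Tests were two-sided and Benjamini-Hochberg adjusted at 0.05. Scripts were tested on simulated data. The small number of arrays limits precision.

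Members and lists were chosen with earlier results of these data known. Every detected member is named; those called in any comparison, at an unadjusted p under 0.05, or at least 1.5-fold different the same way throughout, have full values (10 genes), and list genes are named where called plus at most 3 by size. Alternatives were the authors' matrix, no background correction, scaling to the 75th percentile, an offset of 50, detection on all 6 arrays, no detection filter, the mean of a gene's probes, no other factor in the model, an intensity trend, other probes and each array left out.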

Additional observations from a re-analysis of the deposited data

Results flagged for a closer look

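For 5 carriers the direction of a difference was opposite between the 2 times or between arms, with at least 1.5-fold on at least 1 side. Each value is from 1 array per group, and none of these differences between times or arms was tested.

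For Slc25a25, a calcium-regulated ATP-Mg/phosphate carrier, HFD minus RC was -0.84 (log2) at ZT2 and 0.26 at ZT14, and NOB minus RC was -0.96 and 0.32. Its ZT14 minus ZT2 difference was -0.41 in RC, 0.69 in HFD and 0.86 in NOB, so the chow pools ran opposite to both high-fat arms. For its relative Slc25a24, detected on only 2 arrays, HFD minus RC was -0.64 at ZT2 and 0.58 at ZT14, and ZT14 minus ZT2 was -0.76 in RC, 0.46 in HFD and 0.23 in NOB. For Slc25a33, the pyrimidine nucleotide carrier, HFD minus RC was 0.078 at ZT2 and -0.66 at ZT14. NOB minus HFD was 0.61 at ZT2 and -0.19 at ZT14 for Slc25a34, and 0.64 and -0.41 for Slc25a48, neither of which was detected in NOB at ZT14.

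The same pattern was found in 3 of 30 members for HFD against RC (3.7% of all genes), 2 for NOB against HFD (2.82%), 1 for NOB against RC (5.54%) and 2 for the times (9.74%). The RC array at ZT14, which held the highest skeletal muscle marker levels, enters all of the values for RC at that time, and its part in them was not tested.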

How the results depend on the processing

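Of the carriers called in HFD against RC, Slc25a10 lost its call in 2 of 15 alternatives, Slc25a47 in 4 of 15, Slc25a20 in 10 of 16 and Slc25a30 in 11 of 15; Slc25a15 gained one in 7 of 16 and Slc25a38 in 1 of 17. No called value changed sign. In HFD against RC, 3 carriers were called higher and 1 lower without background correction and with an offset of 50. There were 4 higher and 1 lower with scaling to the 75th percentile, with detection on all 6 arrays and with an intensity trend. With the mean of a gene's probes, 2 were higher and 1 lower. Of 40 fitted values of single carriers, 10 changed sign under some alternative, none past the threshold in either fit. With 1 array left out, HFD minus RC of Slc25a32 ran from -0.049 to 0.32 and NOB minus HFD from -0.18 to 0.26 for Slc25a47, -0.16 to 0.50 for Slc25a38, -0.11 to 0.12 for Slc25a1, -0.066 to 0.17 for Slc25a37 and -0.13 to 0.17 for Slc25a32. NOB minus RC ran from -0.26 to 0.14 for Slc25a13 and -0.029 to 0.34 for Slc25a32, and ZT14 minus ZT2 from -0.30 to 0.085 for Slc25a38 and -0.14 to 0.080 for Slc25a13. NOB minus HFD of Slc25a1 was -0.036 with the mean of its probes and -0.078 with its other probe, and ZT14 minus ZT2 of Slc25a13 was 0.0014 without background correction and 0.0010 with an offset of 50. The count of carriers called in HFD against RC (4) was 1 without a detection filter, 2 without time in the model, and 0 to 3 with 1 array left out; it was 0 without either HFD array. For all genes (584) it was 91 without the filter, 301 without time and 34 to 721 with 1 array left out. NOB against RC (1 carrier, 85 genes) gave 0 carriers without the filter, without time and with any array left out (0 to 0), and for all genes 1 without the filter, 12 without time, 146 with scaling to the 75th percentile (96 higher and 50 lower, against 45 and 40), 152 with an intensity trend and 14 to 165 with 1 array left out. NOB against HFD called 0 carriers by every alternative; for all genes (14) it gave 25 with the 75th percentile, 9 with detection on all 6 arrays, 1 without the filter, 9 without time, 30 with the trend and 0 to 41 with 1 array left out. ZT14 against ZT2 also called 0 carriers throughout; for all genes (2) it gave 9 with the 75th percentile, 5 with an offset of 50, 9 with detection on all arrays, 0 without the filter, 1 with the mean of probes, 0 without arm, 13 with the trend and 1 to 11 with 1 array left out. The fit without the filter tests many more genes, and fits with an array left out have fewer arrays; for the others the cause was not tested. No scaling moved the median of all genes by over 0.1. The additive model already compares the arms within each time and the times within each arm. No further pairing of pools was possible because each arm and time has 1 pool and the labels carry no replicate numbers.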

Other observations

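Some carrier genes sit next to another member of the family in the gene order of GRCm38.p6, and in each of 4 such pairs 1 gene was detected and its neighbour was not. On chromosome 12 Slc25a29 was not detected beside Slc25a47, on chromosome 17 Slc25a41 beside Slc25a23, on chromosome 3 Slc25a54 beside Slc25a24, and on the X chromosome Slc25a43 beside Slc25a5. This describes the probes on this platform, which differ in their binding.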
